A study of Homo sapiens with 6 samples.

Results

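Regions of open chromatin that appeared among the strongest ATAC-seq peaks after NSD2 knockdown, and not among the strongest peaks of the control, were collected over 2 leukemia lines, RS4;11 and RCH. Of 105144 merged regions on chromosomes 1 to 22, 231 belonged to this class (0.22%), here called gained regions. They were chosen from measured values. Each of the 4 peak lists of a line was cut, keeping the peaks of highest fold enrichment, to the length of that line's shortest list, and the 12 cut lists were merged where peaks shared at least 1 bp. A gained region held a peak in both sh2 lists of RS4;11 and of RCH and in no NT list of these lines after the cut. "Gained" names this class and is not a measured rise in accessibility.

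ATAC-seq uses the Tn5 transposase, which inserts adapters where DNA is not wrapped in nucleosomes, so that peaks mark promoters, enhancers and other accessible elements. NSD2 is a histone methyltransferase that places dimethyl marks on lysine 36 of histone H3, a mark that spreads over gene bodies and the space between genes and opposes the repressive lysine 27 mark of the Polycomb complex. In acute lymphoblastic leukemia, activating mutations of NSD2 recur and raise this mark over large parts of the genome.

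The groups were RS4;11 with sh2, an shRNA against NSD2, and RS4;11 with NT, a non-targeting control shRNA, then RCH with sh2 and with NT, and SEM with sh2 and with NT. All are established lines of B-cell acute lymphoblastic leukemia. A KMT2A-AFF1 fusion is present in the first and the last of these. RCH is read here as RCH-ACV, the name in the growth protocol. All groups carry an shRNA. The NSD2 allele of each line and the degree of knockdown were not analysed here. There was 1 sample per line and shRNA with 2 peak lists each, read as 2 libraries. Separate cultures are not stated for them, and their spread may therefore be only technical. With 1 sample per group, no test between sh2 and NT was possible in any line. Each share's interval is the exact 95% Clopper-Pearson one, for counting error only.

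The lists held 40506 to 81527 peaks on chromosomes 1 to 22. The cut kept 59502 peaks per list in RS4;11, 40506 in RCH and 52301 in SEM. It fell mainly on the NT lists of RS4;11 and RCH. In RS4;11 it kept 100% and 97.1% of the sh2 peaks, against 73.0% and 83.3% of the NT peaks, and in RCH 94.1% and 100% of the sh2 peaks, against 74.0% and 73.2% of the NT peaks. In SEM it kept 84.2% and 87.0% of the sh2 peaks, against 100% and 97.8% of the NT peaks. The number of reads is unknown, as the files give none. The background level, read from the spacing of the values in a list which can move with depth, was in RS4;11 1.82 and 1.90 with sh2 against 2.30 and 2.01 with NT, and in RCH 2.55 and 2.57 with sh2 against 1.62 and 1.94 with NT. It was thus lower with sh2 in the first line and higher with sh2 in the second. In SEM it was 1.93 and 1.85 with sh2 and 1.78 and 1.57 with NT. The part of list length and depth in the results that follow was not tested.

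Most gained regions were not free of control peaks. Where peaks tied at the cut value, those earlier by chromosome and position were kept, and a dropped one counts as below the cut. A deposited NT peak below the cut lay in 207 of the 231 (89.6%, interval 84.9 to 93.2). In RS4;11 such a peak lay in 182 gained regions (78.8%) and in RCH in 157 (68.0%), and 132 (57.1%) had one in both lines. All 4 NT lists had a peak at 62 gained regions, 3 lists at 51, 2 at 49 and 1 at 45, and 24 regions (10.4%, interval 6.77 to 15.1) had none. Among all regions that were sh2-only in a line with cut lists, the share with a deposited NT peak was 73.2% of 2867 in RS4;11 and 56.5% of 2880 in RCH. Over all merged regions 2.73% were sh2-only in RS4;11 and 2.74% in RCH. The gained regions made up 8.06% of the sh2-only regions of RS4;11 and 8.02% of those of RCH. The same rule mirrored, with peaks in all 4 NT lists and no sh2 list of these lines, gave 429 lost regions (0.408% of all merged regions). With the lists as deposited there were 27 gained and 985 lost regions among 126189. Left without 1 library, the rule found 232 to 423 gained regions, and over 1.5 times as many without an sh2 library of RS4;11 (376 and 375), an sh2 library of RCH (423 and 422) or NT library 2 of RS4;11 (412). Of the lost regions, 8 (1.86%) held a deposited sh2 peak below the cut. The sh2 lists had few peaks below it to hold, 1751 and 2537 in the longer list of each line.

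**Figure D1:**
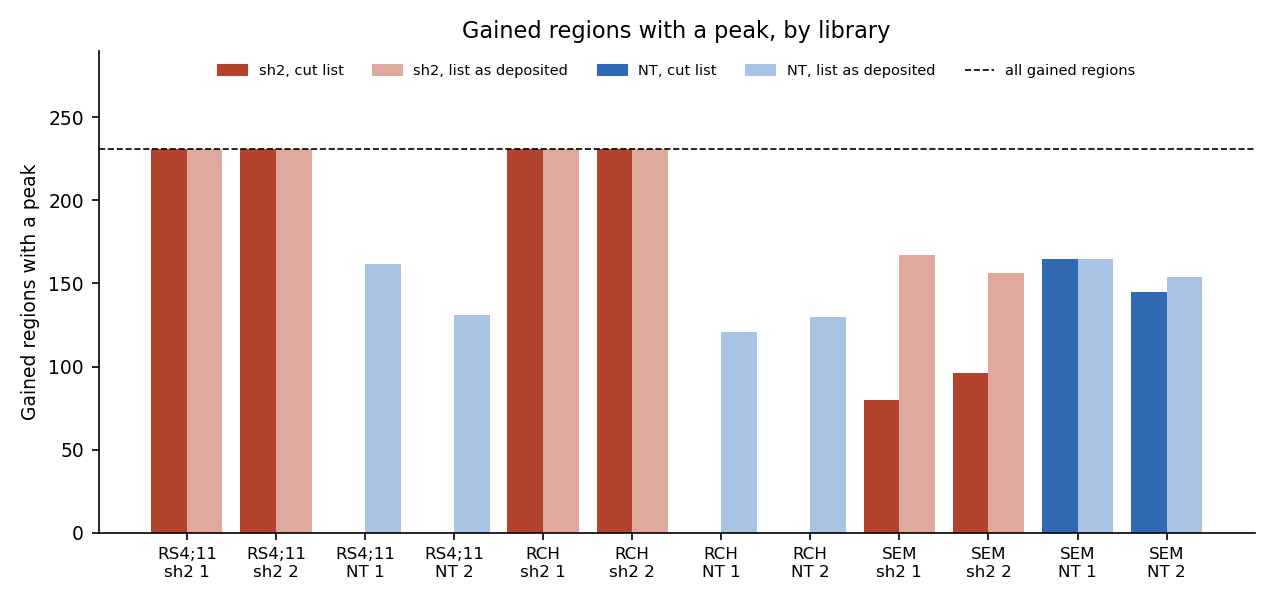
Number of the 231 gained regions with a peak in each library, in the list cut to equal length (dark bars) and in the list as deposited (light bars), sh2 in red and NT in blue. The NT libraries of RS4;11 and RCH have no bar for the cut list by construction, and 121 to 162 of the regions hold a peak in these lists as deposited.

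Peaks at gained regions were weak. The fold enrichment of the peak, the authors' value, read here as signal over the background of the same library, had a median in RS4;11 of 4.44 and 4.50 with sh2 (231 regions each). With NT it was 4.11 over the 162 regions with a deposited peak in library 1 and 3.98 over 131 in library 2. In RCH sh2 the median was 4.13 and 4.17, and in RCH NT 4.04 over 121 regions and 4.0 over 130. Regions open in all 12 cut lists, 18863 in number, had medians of 7.56 to 12.5. These had to lie within every cut, whereas NT peaks at gained regions had to lie below it, so the rule shapes these medians. Lost regions had medians of 6.25 to 7.43 in the NT lists of RS4;11 and RCH. The folds are not normalized between lists, so these values set side by side show no change in level.

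The weakest peak kept by the cut had in RS4;11 a fold of 1.81 and 3.49 with sh2, against 4.85 and 4.43 with NT. In RCH these values were 3.38 and 1.98 with sh2, against 4.71 and 4.77 with NT. A peak of fold 4 therefore stayed in every sh2 list and was dropped from every NT list of these lines. Both sh2 folds lay below both NT cut values at 64 of the 231 regions in RS4;11 and at 138 in RCH. Where an NT peak had been deposited, the stronger NT fold exceeded the weaker sh2 fold at 94 of 182 regions in RS4;11 and at 95 of 157 in RCH. It exceeded the mean of the sh2 folds at 55 and 74 of them.

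The regions also lay close to the cut by rank. The weakest of the 4 sh2 peaks stood at a median of 94.9% of the way down its cut list, and at 166 regions (71.9%) it fell in the last 10%. At 0 regions were all 4 sh2 peaks in the first 50% of their lists. The strongest NT peak, where there was one, stood at a median of 107.0% of the cut length, and at 137 regions it lay within 10% of the cut length beyond the cut. Since these ranks come from the lists that chose the regions, they are a description of how the class was formed.

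**Figure D2:**
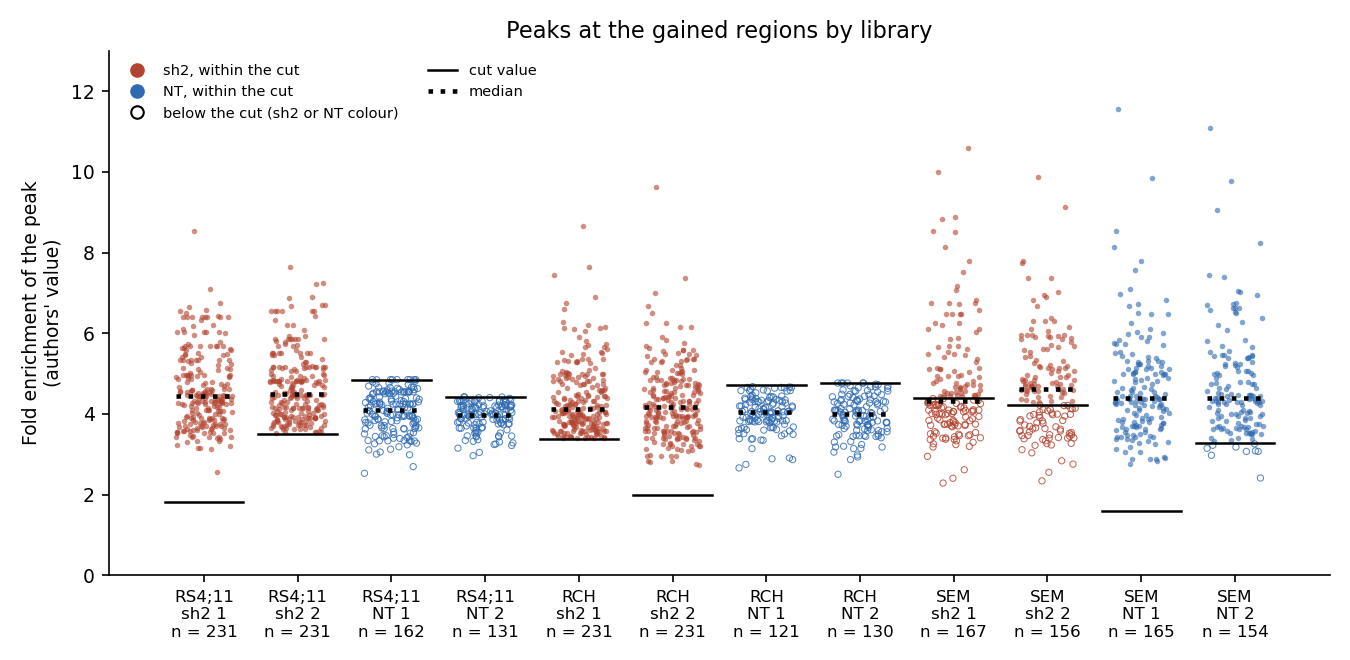
Fold enrichment of the peak at each of the 231 gained regions in the 12 libraries, as deposited (y axis, the authors' value, sh2 in red and NT in blue). Filled points are within the cut, open points below it, solid lines mark the fold of the last peak kept and dotted lines the median. In RS4;11 and RCH the NT points pile up under cut values of 4.43 to 4.85, whereas the sh2 lists there were cut at 1.81 to 3.49.

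Regions just inside and just outside the class show how fine that line was. Inside lay chr6:31705747-31706060 (hg19, as are all coordinates), with folds of 3.94 and 5.15 in RS4;11 sh2 and of 3.40 and 3.37 in RCH sh2. Its only NT peak in these lines was in RCH NT library 1, at 4.30, above both RCH sh2 folds. Also inside were chr19:18390332-18390642, whose RCH sh2 folds were 3.40 and 2.99 beside 4.69 in RCH NT library 2, and chr2:46579642-46580473, which held a deposited peak in all 4 NT lists (4.29 and 4.23 in RS4;11, 3.99 and 4.04 in RCH). Each had a weakest sh2 peak at 1.01 times the cut value of its list. Outside lay chr1:16359342-16359744, with 6.75 and 5.17 in RS4;11 sh2 and 4.45 and 4.05 in RCH sh2. It was left out for 1 NT peak, at 4.85 in RS4;11 NT library 1, exactly at the cut value. The same held for chr9:100472930-100473440 and chr10:52548773-52549101. Position decided among such ties. The gained region chr16:69857807-69858183 also had a peak of 4.85 in RS4;11 NT library 1, and there it was dropped. In all, 435 regions had a peak in all 4 sh2 lists and in exactly 1 NT list of these lines after the cut.

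The gained regions with the strongest peaks were ranked by the mean percentile of fold within the 4 sh2 lists, which was 20.1 at the median and ranged from 4.21 to 58.9. The highest was chr19:2749188-2749687. Its folds were 6.04 and 5.86 in RS4;11 sh2, with no peak in NT of that line, and 7.65 and 9.63 in RCH sh2, with no peak in RCH NT library 1 and 4.77 in library 2. That NT peak stood at the cut value of its list and was dropped by the order of ties. SEM had a peak at this region in every list, at 8.87 and 7.01 with sh2 and at 8.15 and 9.78 with NT. Second was chr19:10542531-10543175, with 6.17 and 6.71 in RS4;11 sh2 against 3.64 in 1 NT list of that line, and 8.66 and 5.59 in RCH sh2 against 4.04 and 4.72 in RCH NT. In these lines the sh2 folds of both regions were above every NT fold deposited there. The cut held NT folds at gained regions to 4.85 or less, and the ranking picked high sh2 folds. This order therefore follows from the choice of regions and is no result.

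After these came chr19:37783935-37784823, 889 bp wide, with sh2 folds of 6.04 and 5.86 in RS4;11 and of 6.76 and 6.16 in RCH. It had 1 NT peak, at 4.55 in library 1 of RS4;11, and no peak in SEM. On chromosome 16, chr16:2570094-2570532 had 6.75 and 5.52 in RS4;11 sh2 and 6.61 and 5.34 in RCH sh2, with a single NT peak of 3.94 in RS4;11. All 4 SEM lists had a peak at this place. On chromosome 22, chr22:40711396-40711760 had in RS4;11 6.04 and 5.86 with sh2 against 4.24 and 4.31 with NT, and 5.91 and 6.16 in RCH sh2 against 4.77 in 1 RCH NT list. No SEM list had a peak there. The NT peak of 4.77 stood at the cut value of its list and was dropped by the order of ties.

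At 24 gained regions the NT lists of RS4;11 and RCH held no peak as deposited either. These regions lay on 14 chromosomes, 7 of them on chromosome 19, and their mean percentile of fold ran from 8.63 to 49.5. The strongest was chr19:51182653-51182983, with 5.68 and 5.52 in RS4;11 sh2 and 6.11 and 7.37 in RCH sh2. SEM had a single peak there, at 5.12 in sh2 library 1. Next came chr22:37178041-37178393, with 5.68 and 6.55 in RS4;11 sh2 and 6.19 and 5.50 in RCH sh2, where SEM was open in all lists (8.52 and 5.86 with sh2, 8.54 and 7.45 with NT). It was followed by chr12:49921529-49921859, with 6.04 and 6.55 in RS4;11 sh2 and 5.53 and 5.64 in RCH sh2. SEM was again open throughout, at 6.48 and 5.96 with sh2 and 5.32 and 5.46 with NT.

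The region chr19:7716951-7717401 had 6.39 and 5.86 in RS4;11 sh2 and 6.06 and 4.11 in RCH sh2, and a peak in all 4 SEM lists. At chr1:17386177-17386572 the sh2 folds were 5.33 and 7.24 in RS4;11 and 4.22 and 5.44 in RCH, with no SEM peak. At chr15:78167509-78167770 they were 5.94 and 5.17 and then 4.78 and 5.37, and SEM had a peak in sh2 library 2 (5.26) and in NT library 2 (6.62). Across the 24 regions, the cut SEM lists all had a peak at 8, only the NT lists at 1 and only the sh2 lists at 0. Over all merged regions the shares in these states were 32.2%, 3.34% and 4.06%. The counts among the 24 are small and were not tested. Of the 27 regions found with the lists as deposited, 24 overlapped a gained region.

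The classes by number of NT lists with a peak differed in several ways. The median percentile of fold was 27.5 over the 24 regions without NT peaks and 15.2 over the 62 with a peak in all 4 NT lists. Median width was 416 bp in the first and 690.5 bp in the second. With 1, 2 and 3 NT lists the width was 397, 488 and 490 bp. A region open in all 12 lists lay at a median of 15.3 kb from the first and of 4.03 kb from the second. With 1, 2 and 3 NT lists the distance was 13.5, 16.1 and 12.2 kb, so it did not fall steadily. Chromosome 19 held 29.2% of the first (7 of 24), 15.6% of those with 1 NT list, 14.3% with 2, 25.5% with 3 and 4.84% of the second (3 of 62). These classes are small and were not tested against each other.

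Gained regions were unevenly spread over the chromosomes. Chromosome 19, known for its high density of genes and for large families of zinc finger repressor genes, held 37 of the 231 (16%, interval 11.5 to 21.4). It held 0 of the 429 lost regions, where a limit of 3 counts (used in place of an interval for counts of 0) allows a share of up to 0.699%, and 2.77% of all merged regions. Chromosome 16 held 21 gained and 4 lost regions, chromosome 17 held 16 and 3, and chromosome 22 held 12 and 0. Together chromosomes 16, 17, 19 and 22 held 37.2% of the gained regions (31.0 to 43.8), 1.63% of the lost regions and 10.6% of all merged regions. At the other end, chromosome 4 had 0 gained regions, where the limit of 3 counts allows a share of up to 1.30%, and 38 lost regions, chromosome 2 had 9 and 53, chromosome 3 had 7 and 48, and chromosome 8 had 6 and 36. Gained regions were found on 21 of the 22 chromosomes and outnumbered lost regions on 7, namely 9, 15, 16, 17, 19, 20 and 22. Of every 1000 merged regions, 12.7 were gained on chromosome 19, 7.29 on chromosome 22, 6.80 on chromosome 16 and 4.58 on chromosome 17, against 0.955 on chromosome 2 and 0.937 on chromosome 3. The share on chromosome 19 was 10.2% without RCH sh2 library 2 and 25.9% of the 27 regions found with the lists as deposited, and it was 38.1% of the 21 regions found with only peaks above the pooled median fold. Ties at the cut were kept in order of chromosome, so NT peaks at that value were dropped on later chromosomes first. At chr16:69857807-69858183, for example, the only NT peak stood at the cut value of its list, 4.85. The part of this order in the spread over chromosomes was not tested.

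**Figure D3:**
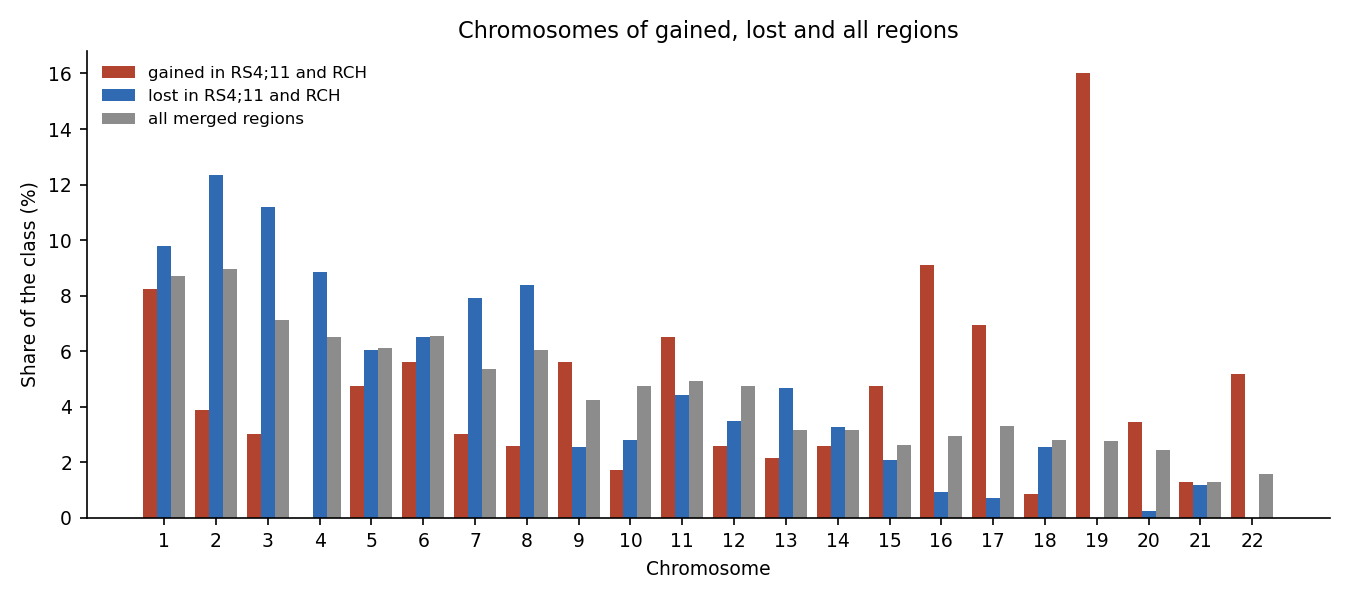
Share of the gained regions (red, n = 231), of the lost regions (blue, n = 429) and of all merged regions (grey, n = 105144) on each chromosome. Chromosome 19 stands out with 16% of the gained regions, no lost region and 2.77% of all regions, and chromosome 4 has no gained region.

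The share of chromosome 19 also differed between sh2 and NT over whole lists, and its part in the count of gained regions was not tested. Of all peaks kept by the cut, it was 2.86% and 2.85% with sh2 against 2.14% and 2.31% with NT in RS4;11. In RCH it was 4.84% and 4.89% with sh2 against 3.31% and 3.17% with NT, and in SEM 3.15% and 3.04% with sh2 against 3.89% and 3.69% with NT. Among the last 20% of the kept peaks, where the weakest sh2 peak of 211 gained regions lay, chromosome 19 held in RS4;11 2.65% and 2.83% with sh2 against 1.99% and 2.40% with NT. In RCH it held 4.55% and 4.49% with sh2 against 2.75% and 2.73% with NT. In SEM it held 2.99% and 2.87% with sh2 against 4.14% and 3.65% with NT. The sh2 lists were thus lower than the NT lists in SEM and higher in the other lines, with no overlap between libraries in any line. Of the sh2-only regions of RS4;11, 23.1% of those on chromosome 19 belonged to the class (37 of 160, interval 16.8 to 30.4), and 7.17% of those on the other chromosomes (194 of 2707). Of the sh2-only regions of RCH, the shares were 11.3% (37 of 328, 8.07 to 15.2) and 7.60% (194 of 2552).

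Along chromosome 19 the gained regions were spread over both arms. The first 20 Mb held 21 of them among 1372 merged regions, the stretch from 20 to 35 Mb held 0 among 259, and the rest held 16 among 1284. The first 5 Mb held 8 of them, more than any later step of 5 Mb, and also held the most merged regions (450).

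Gained regions lay in crowded parts of the genome, close to chromatin that was open in every library. The nearest region open in all 12 lists was at a median of 11.4 kb from a gained region, against 136.9 kb from a lost region. Among all regions with a peak in both RS4;11 and RCH but not in all 12 lists it was 37.7 kb. Within 10 kb of such a region lay 110 gained regions (47.6%), 2.80% of the lost and 19.7% of those with a peak in both lines. Beyond 100 kb lay 9 gained regions (3.90%), against 59.4% of the lost regions and 25% of those with a peak in both lines. The median number of regions open in all 12 lists within a window of 1 Mb was 14 around gained regions, 3 around lost regions and 8 around regions with a peak in both lines. Regions sh2-only in RS4;11 that were not gained in RCH lay at a median of 17.4 kb, and those sh2-only in RCH alone at 22.6 kb. The distance was 8.97 kb for gained regions of chromosome 19 and 12.7 kb for those of the other chromosomes, so the short distance was not limited to chromosome 19. It was 24.0 kb with lists cut to 80% of the shortest, 28.9 kb where peaks had to cover 50% of a region and 60.8 kb with only peaks above the pooled median fold. The set open in all 12 lists was remade under each of these settings. The distances of 37.7 and 136.9 kb are from the main setting and are no comparison for them.

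**Figure D4:**
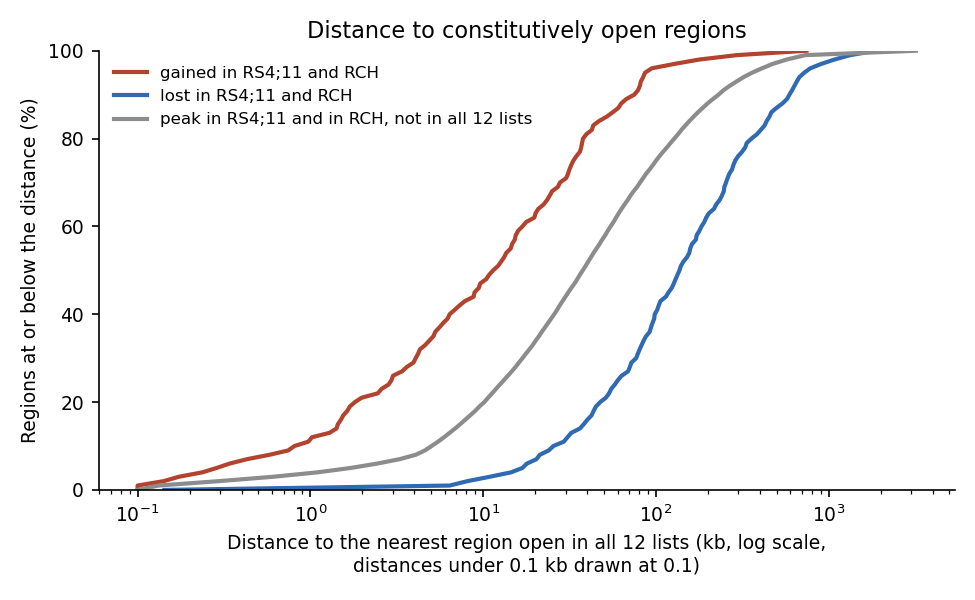
Cumulative share of regions (y axis) by how far away the nearest region open in all 12 cut lists lay (x axis, kb, log scale), for gained regions (red), lost regions (blue) and regions with a peak in RS4;11 and in RCH but not in all 12 lists (grey). The red curve passes 50% at 11.4 kb, the grey curve at 37.7 kb and the blue curve at 136.9 kb.

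The ends of chromosomes were also represented. Within 5 Mb of the outermost peak of a chromosome lay 56 gained regions (24.2%), against 3.03% of the lost regions and 10.5% of all merged regions. The share was 17.4% of the regions sh2-only in RS4;11 and 24.5% of those sh2-only in RCH that were not in the class. Gained regions were 223 to 1743 bp wide with a median of 491 bp. Regions with a peak in RS4;11 and in RCH but not in all 12 lists had a median of 472 bp. The median was 435 bp for lost regions, 393 bp for all merged regions and 849 bp for regions open in all 12 lists.

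Single places with many gained regions were few. Of the 231, 31 (13.4%) lay within 100 kb of another, against 8.39% of the lost regions, although there were more of those to lie near. This share was 22.9% and 20.1% without RCH sh2 library 1 or 2, 21.1% without RS4;11 sh2 library 2 and 21.8% without NT library 2 of that line, each with more regions in the class. With the lists as deposited it was 7.41% of 27 regions. No window of 1 Mb starting at a gained region held more than 4. Windows with 4 were found at 8 starts, on chromosome 6 (30658498 to 31706060, as a pair of overlapping windows), chromosome 9 (139971719 to 140301864), chromosome 16 (85145937 to 86016588, and an overlapping pair from 88535004 to 89556194) and chromosome 19 (9649198 to 10543175 and 41857108 to 42758897). In the tightest, at the end of the long arm of chromosome 9, chr9:140301453-140301864 had no NT peak, with sh2 folds of 4.08 and 5.11 in RS4;11 and of 3.43 and 4.64 in RCH. The other regions of that window each held deposited peaks in 2 or 3 NT lists. In the chromosome 6 windows, chr6:30851477-30852629 had the highest mean percentile, with in RS4;11 4.20 and 6.33 with sh2 against 4.31 and 4.31 with NT, and 5.65 and 5.31 in RCH sh2 against 4.34 and 4.31 in RCH NT.

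Around the gained regions, the same tilt was seen in RS4;11 and RCH. Among the 1902 other regions within 50 kb of a gained region, 5.57% were sh2-only and 0.263% NT-only in RS4;11, against 2.73% and 4.74% over all merged regions. In RCH they were 8.10% and 0.894%, against 2.74% and 3.77%. Around lost regions (1143 others within 50 kb), 0.525% were sh2-only and 9.54% NT-only in RS4;11, and 0.262% and 6.21% in RCH. These neighbours come from the same lists as the rule and are given as a description. In SEM, whose peaks entered the merging but not the choice by shRNA, the neighbours of gained regions were sh2-only at 1.21% and NT-only at 7.83%, against 4.06% and 3.34% over all merged regions, and those of lost regions were sh2-only at 5.34% and NT-only at 2.19%. These SEM shares are from the cut lists only, and the part of list length in them was not tested.

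Which shRNA had a peak in SEM played no part in choosing the regions, although SEM peaks entered the merging. Merged from the 8 lists of the other lines alone, the class held 247 regions, of which 18.2% were NT-only in SEM and 0.405% sh2-only. With SEM lists cut to equal length, gained regions went the opposite way. They were sh2-only in SEM at 1 region (0.433%, interval 0.011 to 2.39) and NT-only at 42 (18.2%, 13.4 to 23.8). Over all merged regions 4.06% were sh2-only and 3.34% NT-only in SEM, and over regions with a peak in both other lines the shares were 2.77% and 2.8%. By any imbalance, 12 gained regions (5.19%) had more sh2 than NT lists with a peak and 105 (45.5%) more NT than sh2 lists, against 11.7% and 11.2% of the regions with a peak in both lines. A peak in all 4 SEM lists was found at 48 gained regions (20.8%), against 17.5% of the lost regions, 62.2% of those with a peak in both lines and 32.2% of all merged regions. No SEM list had a peak at 53 gained regions (22.9%), against 40.8%, 11.9% and 32.3% of these sets. Without SEM sh2 library 2 the NT-only share was 30.6% and the sh2-only share 2.16%, and without SEM NT library 1 they were 19.1% and 2.13%. Without SEM NT library 2 they were 24.5% and 1.29%. With lists cut to 80% of the shortest, the NT-only share was 4.76%. Among the 48, the median place in the cut list was 71.8% and 72.3% in SEM sh2 and 68.9% and 66.8% in SEM NT. The same direction was seen at the 27929 regions with a peak in both lines and in all 4 SEM lists. There the places were 30.5% and 30.7% with sh2 and 28.8% and 28.8% with NT.

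With the SEM lists as deposited, the numbers of gained regions with a peak no longer stood apart between sh2 and NT. The 231 regions held a deposited peak at 167 and 156 places in SEM sh2 and at 165 and 154 in SEM NT, so that the libraries of the shRNAs overlapped. Now 1 region was sh2-only (0.433%) and 4 were NT-only (1.73%), against 3.39% and 1.31% of regions with a peak in both lines and 5.29% and 1.92% of all merged regions. All 4 SEM lists had a peak at 126 gained regions (54.5%), against 18.9% of the lost regions, 65.8% of those with a peak in both lines and 35% of all merged regions. None had one at 45 gained regions (19.5%), against 39.6%, 10.6% and 30.4% of these sets. By imbalance, 29 (12.6%) now had more sh2 than NT lists with a peak and 22 (9.52%) more NT than sh2 lists. Among regions with a peak in both lines these shares were 13.9% and 6.76%, and over all merged regions 19.4% and 11.4%. The SEM lists were cut at folds of 4.39 and 4.22 with sh2 and of 1.60 and 3.28 with NT. The NT lists were the shorter ones in SEM, and at the gained regions 165 and 145 of their peaks were within the cut, against 80 and 96 of the sh2 peaks. The part of list length in this was not tested. The lost regions were NT-only in SEM at 9.79% with cut lists and at 7.69% as deposited, and sh2-only at 2.33% and 3.03%.

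**Figure D5:**
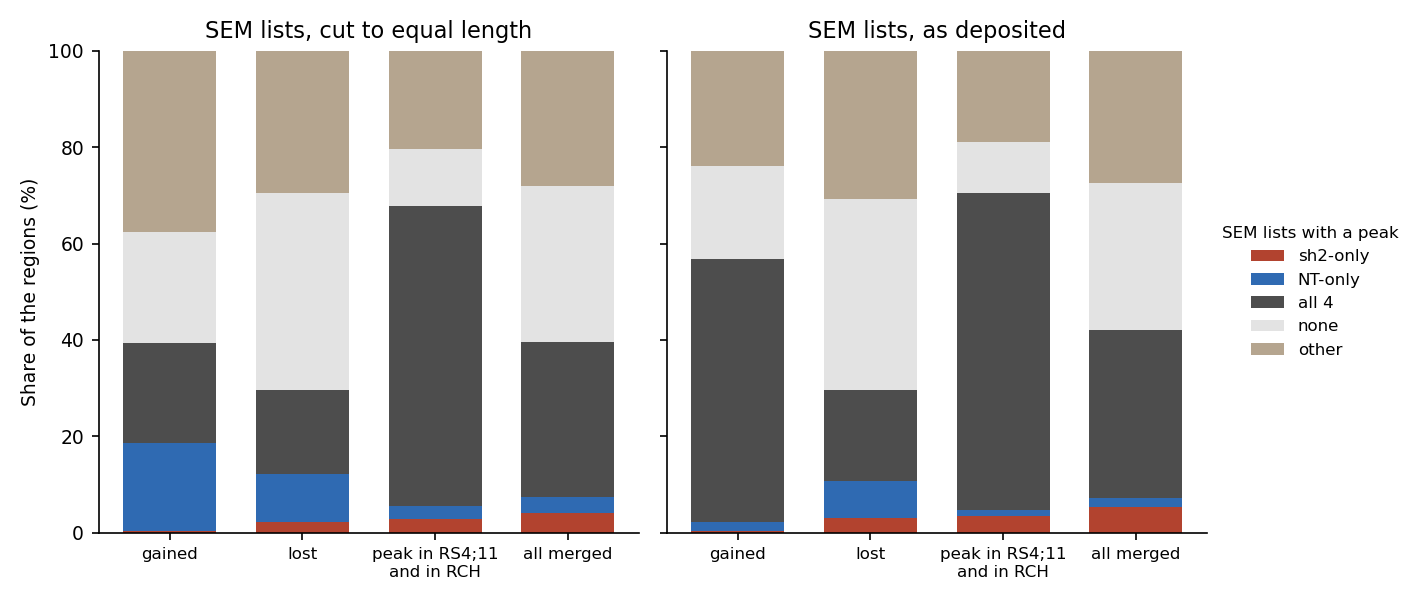
Share of regions (y axis) by which SEM libraries held a peak, for gained, lost, all regions with a peak in RS4;11 and in RCH, and all merged regions, with SEM lists cut to equal length (left) and as deposited (right). In the cut lists 18.2% of the gained regions were NT-only in SEM and 0.433% sh2-only, and as deposited 1.73% and 0.433%.

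Single regions show these patterns. The 1 region sh2-only in SEM was chr11:32413580-32414265, with SEM folds of 4.93 and 4.76 with sh2, and with NT a single peak of 3.07 below the cut. It held a deposited peak in all 4 NT lists of the other lines (3.06 and 3.8 in RS4;11, 3.75 and 4.48 in RCH), beside sh2 folds of 3.15 and 4.80 in RS4;11 and of 4.53 and 3.12 in RCH. Of the NT-only regions in SEM, the strongest was chr1:46035742-46036089, with no SEM sh2 peak at all and SEM NT folds of 6.47 and 5.41. In RS4;11 it had 8.52 and 4.14 with sh2 against 4.55 in 1 NT list, and in RCH 5.80 and 4.03 with sh2 and no NT peak. At chr1:6101053-6101495 SEM had 3.70 and 3.27 with sh2, below the cut, and 4.15 and 4.53 with NT. At chr19:47975074-47975555 it had 3.51 and 3.95 with sh2, below the cut, and 4.55 and 6.62 with NT. Of the 37 gained regions of chromosome 19, 7 were NT-only in SEM, 0 sh2-only and 9 open in all 4 cut lists. Over all 231 gained regions these states held 42 (18.2%), 1 (0.433%) and 48 (20.8%). Over all merged regions they held 3.34%, 4.06% and 32.2%. No such shares are given here for all merged regions of chromosome 19.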

How the data were processed

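ATAC-seq peak lists of 6 samples (lines RS4;11, RCH and SEM, each with sh2 or NT, 2 lists per sample) were used. Per the submitters' processing notes, Bowtie2 and MACS2 were used on build hg19. The sources used here do not give versions, settings, duplicate removal or read shifting. Column 5, deposited by the authors, was read as a fold enrichment, a ratio of signal to local background within 1 library. This was inferred from evenly spaced values, of which 8.87% to 25.0% per list were whole multiples of 1 step (tolerance 0.0002). The background level is 1 over the step, minus 1. Depth is unknown.

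Peaks on X and Y were left out. Ties at the cut were ordered by position. Percentiles and places are ranks within a list. Named regions were the 8 highest by mean percentile in the sh2 lists, the 6 highest without NT peaks, the 3 highest sh2-only and NT-only in SEM, 3 on each side of the cut, and the 1 Mb windows with most members. The class and its descriptions were chosen with earlier results of these data known, and distance to chromosome ends, ranks near the cut, neighbours, chromosome groups and the last 20% of lists were added after values were seen. The choice of regions, without the cut, was checked on simulated lists, and the merging of the cut lists with bedtools. The cut and its order of ties were not checked in this way. No hg19 genome or annotation was used, so genes, promoters, motifs and sequence were not analysed here. Tools were bedtools 2.31.1, matplotlib 3.10.9 and Python 3.11.15 with scipy 1.17.1, pandas 2.3.3 and numpy 2.4.6.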

Additional observations from a re-analysis of the deposited data

Results flagged for a closer look

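The number of gained regions with a peak in the cut list moved in the opposite direction in SEM. It averaged 88 in SEM sh2 (80 and 96 regions) and 155 in SEM NT (165 and 145), a difference of -67 regions (sh2 minus NT), while the rule sets it to 231 with sh2 and 0 with NT in RS4;11 and RCH. Every SEM sh2 library lay below every SEM NT library, but whether lines differ in this was not tested. As deposited, the SEM lists gave 167 and 156 with sh2 and 165 and 154 with NT.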

How the results depend on the processing

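The number of gained regions depended on the cut. It was 27 with lists as deposited, 21 with only peaks above the pooled median fold (6.37), 2867 for RS4;11 alone and 2880 for RCH alone, and 168 to 247 with an 80% cut, 50% coverage, merging of 8 lists or chromosome X. With 1 library left out it was 232 to 423, over 1.5 times the full count without either sh2 library of RS4;11 (376 and 375) or of RCH (423 and 422) or without RS4;11 NT library 2 (412). The share with a deposited NT peak was 96.4% with the 80% cut, 84.5% with 50% coverage, 100% with strong peaks, 73.2% for RS4;11 alone, 56.5% for RCH alone and 77.8% to 89.8% with 1 library left out. The share on chromosome 19 was 25.9% as deposited, 38.1% with strong peaks, 5.58% for RS4;11 alone, 11.4% for RCH alone and 10.2% to 17.8% with 1 library left out. The share NT-only in SEM was 0% of the 27 regions found as deposited and 4.76% with the 80% cut. It was 4.76% of the 21 with strong peaks, 7.85% for RS4;11 alone and 8.13% for RCH alone. With 1 library left out it was 15.2% to 30.6%. The 231 regions themselves were NT-only at 1.73% in the SEM lists as deposited. The share sh2-only in SEM was 0% of the 27 found as deposited, and 0% with 50% coverage and with strong peaks. It was 3.17% for RS4;11 alone and 0.310% to 2.16% with 1 library left out. The median distance to regions open in all 12 lists was 15.2 kb as deposited, 24.0 kb with the 80% cut, 28.9 kb with 50% coverage, 60.8 kb with strong peaks, 16.7 kb for RS4;11 alone, 21.6 kb for RCH alone and 10.5 to 14.6 kb with 1 library left out. The set of open regions was remade under each setting. The share within 100 kb of another gained region was 7.41% as deposited, 43.7% for RS4;11 alone, 53.1% for RCH alone and 13.3% to 22.9% with 1 library left out. Apart from the fewer peaks or lines that a setting uses, the cause was not tested. No paired analysis was possible because the labels give no replicate numbers, and pairing sh2 with NT by line gives no test where the rule fixes the direction in 2 of the 3 lines. Planned checks of base composition, motifs and genes were not run. Unknown depth limits all counts.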
